A study of Mus musculus with 6 samples.

Results

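The genes described here encode the translation initiation and elongation factors of mouse bone marrow–derived macrophages (BMMs). They are the protein-coding genes whose symbols start with Eif1 to Eif6, Eef1 or Eef2. The rule gives 68 symbols in the annotation. Of these, 66 were among the 23504 genes of the expression table, Eef1akmt4 and Eif4e1b were not analysed here, and 62 had a mean of at least 1 FPKM and were tested. The rule uses names only and no measured value. It also takes in the kinases, binding proteins and methyltransferases that act on the factors, because they carry the same name stem.

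A eukaryotic ribosome starts on an mRNA with the help of initiation factors. The eIF2 complex brings the initiator tRNA, eIF3 and the eIF1 proteins hold the small subunit ready, and the eIF4 proteins recognize the cap and unwind the leader of the mRNA. Elongation factors then take over: eEF1A delivers each aminoacyl-tRNA, eEF1B recharges eEF1A with GTP, and eEF2 moves the ribosome forward by 1 codon. Osteoclasts, the bone-resorbing cells that arise from macrophages by fusion, make large amounts of secreted enzymes and membrane proteins.

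RNA-seq was done on 6 libraries of BMMs from C57BL/6 mice, 3 treated with DASA-58 and 3 with DMSO, the solvent. DASA-58 is a small-molecule activator of the glycolytic enzyme pyruvate kinase M2 (PKM2), and the comparison asks how the activator changes transcription while osteoclasts form. The mice were males of 6 to 8 weeks, the cells were grown with M-CSF, and RNA was taken after 3 days of induction with the osteoclast cytokine RANKL. The methods text writes the compound as DASA-48 in this experiment and does not say whether the DMSO cells also received RANKL, while the results text describes induction of both. No concentration was stated for these libraries. The labels do not say whether replicates came from separate mice or cultures, so p-values measure only the spread between these libraries, which may be technical.

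The deposited values are FPKM, fragments normalized for exon length and library depth, which allow levels to be compared between genes. The depth recovered from the values was 18209396 to 18853041 fragments with DMSO and 18191560 to 18968556 with DASA-58. The libraries expressed both macrophage and osteoclast markers. All 8 tested genes of a list of 9 osteoclast markers were lower with DASA-58 (limma, adjusted p under 0.05), and the list summed to 773–828 FPKM with DMSO and 446–465 with DASA-58. Of 8 macrophage markers, 4 were higher and 0 lower, with sums of 16359–17196 and 17316–19626 FPKM. Neutrophil markers, of which 3 of 7 tested were lower, summed to 127–133 and 103–107 FPKM. Stromal markers had overlapping sums (34.7–36.8 and 35.0–36.0 FPKM), lymphocyte markers stayed at 2.07–2.7 FPKM, and the erythroid marker and the mast cell and basophil list reached at most 0.243 and 0.521 FPKM. In such bulk RNA, fewer cells of a type and less RNA per cell cannot be told apart. The part of these cell types in the values given here was not tested.

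Most factors were slightly lower with DASA-58. Of the 62 tested, 57 had a negative log2 fold change, against 59.8% of all 10965 genes tested, and the changes were small, from −0.23 to 0.13 on the log2(FPKM + 1) scale. The median was −0.095 for the factors, with the middle of the distribution between −0.14 and −0.05, and −0.028 for all genes. In the limma fit with Benjamini-Hochberg adjustment over all genes, 13 factors (21%) were lower at an adjusted p under 0.05, where 7.28% of all genes were. None was higher, where 4.24% of all genes were. At an unadjusted p under 0.05 in limma, 33 factors were lower and 0 higher, where 18.0% and 9.83% of all genes were. Across all genes, 798 were lower and 465 higher, a split that changed to 519 and 594 with each library centred on its median, to 588 and 600 with quantile normalization, and to 523 and 594 with a trimmed mean of log ratios. Under those settings 4, 10 and 5 of 62 factors were lower, where 4.73%, 5.36% and 4.77% of all genes were. A negative log2 fold change was found in 51, 52 and 51 of 62, where 51.0%, 50.5% and 51.0% of all genes had one. With equal library totals 17 factors were lower, where 8.74% of all genes were, and 58 of 62 were negative, where 64.9% of all genes were.

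The libraries of both groups were also compared without a model. In 36 of 62 factors (58.1%) all 3 DASA-58 libraries lay below all 3 DMSO libraries, which was so for 21.6% of all genes. In 2 factors, Eif3f and Eif2ak4, all 3 lay above, which was so for 11.8% of all genes, and in 24 the groups overlapped. The FPKM of the 66 genes summed to 7881, 7986 and 7979 with DMSO and to 7549, 7597 and 7585 with DASA-58. Their part of all FPKM was 2.25%, 2.24% and 2.28% with DMSO and 2.13%, 2.14% and 2.1% with DASA-58. Both the sum and the share were thus lower in each DASA-58 library than in any DMSO library, and the mean sum was 95.3% of that with DMSO.

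**Figure D1:**
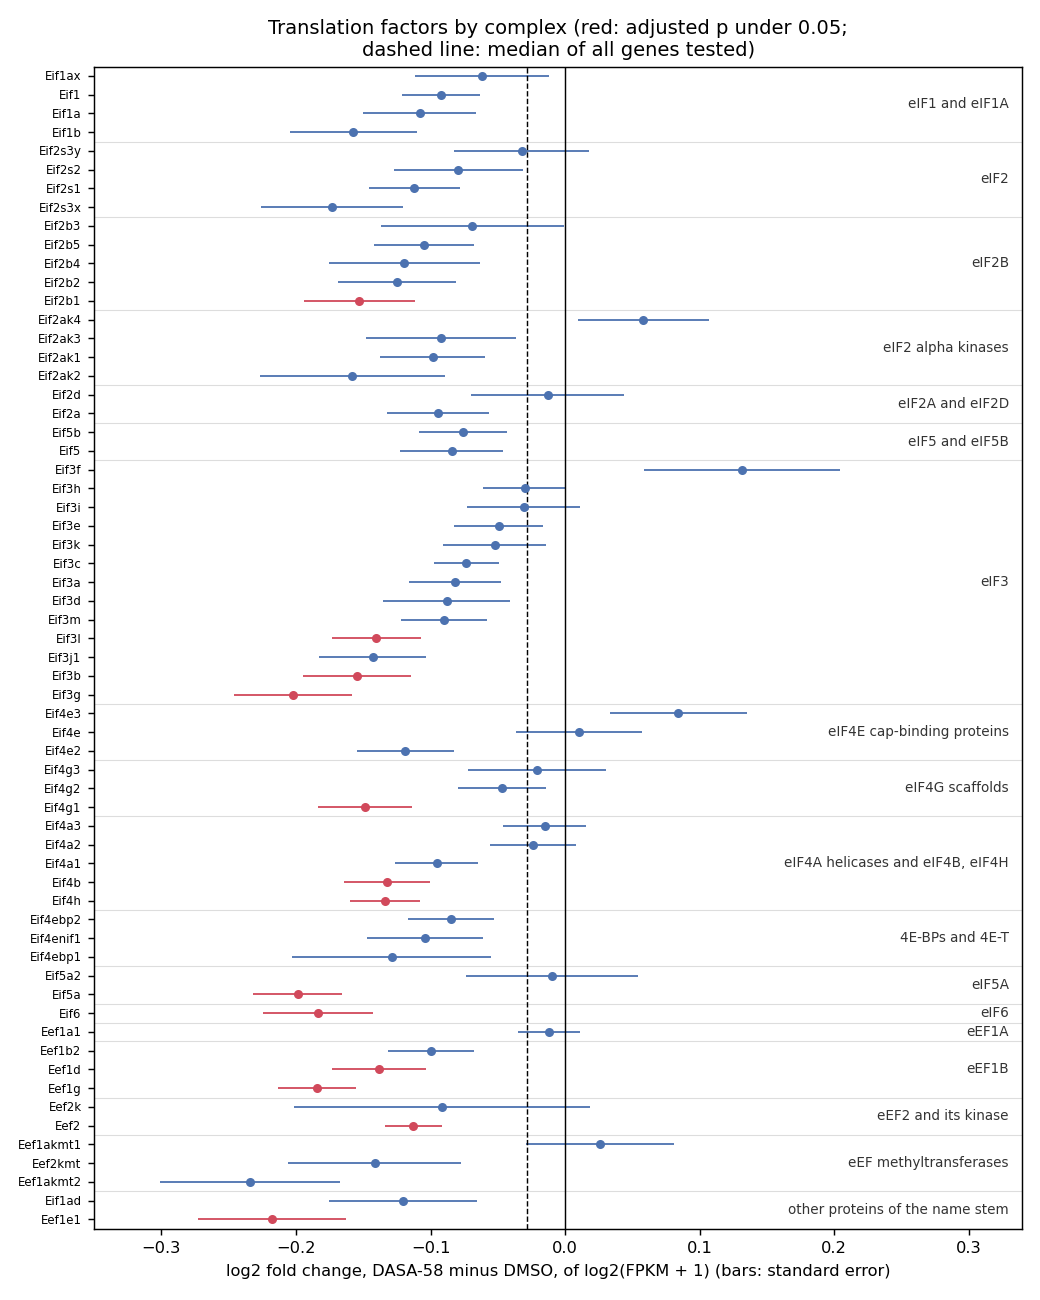
Log2 fold change (DASA-58 minus DMSO, of log2(FPKM + 1), horizontal axis) of the 62 factors tested, grouped by complex, with points for the estimate, bars for the standard error, red for an adjusted p under 0.05 and a dashed line at the median of all genes tested, −0.028. Points of 57 factors lie left of 0, the 13 red ones all among them, and Eif3f lies farthest to the right at 0.13.

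The single-protein factors eIF5A and eIF6 were both lower with DASA-58. Eif5a encodes eIF5A, the hypusine-containing factor that helps ribosomes through difficult peptide bonds and acts in elongation and termination as well. It lies at chr11:69916714-69921958 (GRCm38, minus strand) and was the most abundant initiation factor, with 486, 497 and 468 FPKM in the DMSO libraries and 407, 427 and 431 in the DASA-58 libraries. The groups did not overlap, and the level fell to 87.1% of the DMSO mean (log2 fold change −0.20, SE 0.033, limma adjusted p = 0.0093). Its paralog Eif5a2 was expressed at 1.92 ± 0.0892 FPKM with DMSO and 1.90 ± 0.0791 with DASA-58 (SD, n = 3), and the groups overlapped.

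Eif6 (chr2:155819832-155826925, minus strand) encodes eIF6, which keeps the large ribosomal subunit from joining the small one too early. It gave 77.3, 78.1 and 73.4 FPKM with DMSO and 63.7, 67.9 and 69.5 with DASA-58. All 3 DASA-58 values were below the lowest DMSO value, and the level fell to 87.9% (log2 fold change −0.18, SE 0.041, limma adjusted p = 0.027). Exons of Gm16098 on the other strand cover 5.1% of the Eif6 exons, and the use of strand in counting was not stated.

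The subunits of eEF1B, the exchange factor of eEF1A, stood lower together, while eEF1A itself did not differ beyond its spread. Eef1g (chr19:8967041-8978479, plus strand), the structural gamma subunit, had 321, 325 and 316 FPKM with DMSO and 272, 287 and 287 with DASA-58. It fell to 88.0% of the DMSO mean (log2 fold change −0.18, SE 0.029, limma adjusted p = 0.0077). Eef1d (chr15:75894205-75909556, minus strand), the delta subunit with exchange activity, fell from 30.7, 30.8 and 30.0 FPKM to 27.6, 28.6 and 26.6 (log2 fold change −0.14, SE 0.035, limma adjusted p = 0.044). In neither gene did the groups overlap. The remaining exchange subunit, Eef1b2, was at 179 ± 6.72 FPKM with DMSO and 167 ± 1.97 with DASA-58 (SD, n = 3), also without overlap, and did not pass (log2 fold change −0.10, limma adjusted p = 0.086).

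Eef1a1, the elongation factor that carries aminoacyl-tRNA, was the most abundant of all factors. Its levels were 3252, 3296 and 3371 FPKM with DMSO and 3291, 3269 and 3275 with DASA-58. The groups overlapped and the DASA-58 mean was 99.2% of the DMSO mean, a log2 fold change of −0.01 (limma adjusted p = 0.78) that turned to 0.013 with centring on the median or a trimmed mean of log ratios. Eef2 (chr10:81176631-81182498, plus strand), the translocase, followed with 1015, 1010 and 1005 FPKM with DMSO and 942, 931 and 930 with DASA-58. This was a narrow but complete separation, and Eef2 fell to 92.5% (log2 fold change −0.11, SE 0.021, limma adjusted p = 0.014). Eef2k, the kinase that inactivates eEF2, was expressed at 2.95 ± 0.542 and 2.69 ± 0.314 FPKM (SD, n = 3), with overlapping groups.

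**Figure D2:**
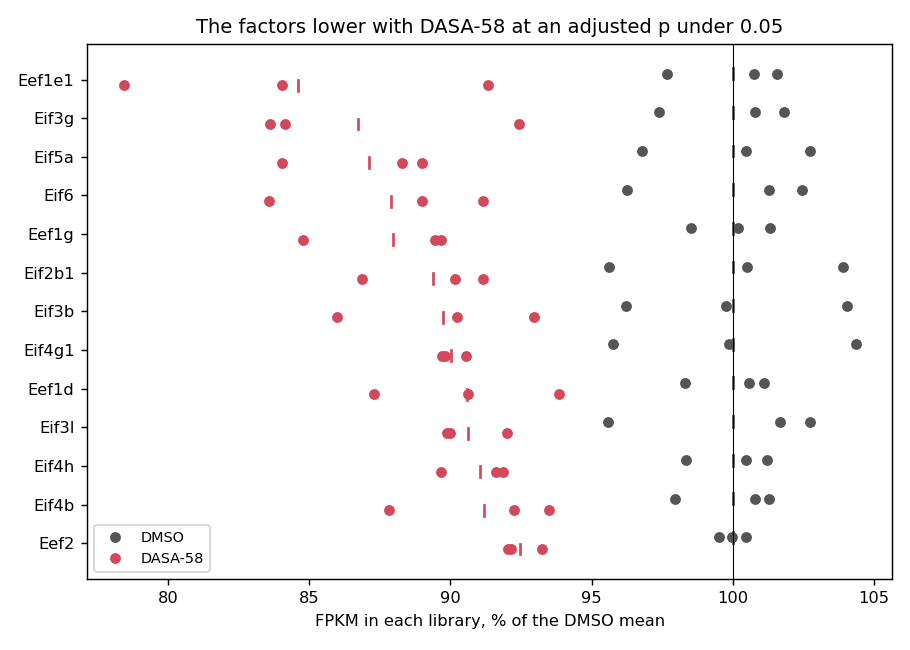
FPKM of each library as a percentage of the DMSO mean of the gene (horizontal axis) for the 13 factors lower at an adjusted p under 0.05, with grey points for DMSO, red points for DASA-58 and short bars for the group means. Group means with DASA-58 lie between 84.6% (Eef1e1) and 92.5% (Eef2), and no red point reaches the grey points of the same gene.

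At the cap-binding step, the scaffold and the helicase cofactors changed and the cap-binding protein did not pass the test. Eif4g1 (chr16:20668313-20692884, plus strand), the scaffold that joins the cap-binding protein to the helicase, had 74.9, 71.7 and 68.7 FPKM with DMSO and 65.0, 64.4 and 64.5 with DASA-58. It fell to 90.0% (log2 fold change −0.15, SE 0.035, limma adjusted p = 0.034). Eif4g2, a related scaffold that does not bind the cap protein, gave 92.0, 89.0 and 96.1 FPKM against 89.5, 89.8 and 88.7. Those groups overlapped, as did those of Eif4g3 at 10.9 ± 0.246 and 10.7 ± 0.721 FPKM (SD, n = 3).

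Eif4h (chr5:134619721-134639490, minus strand) and Eif4b (chr15:102073773-102097173, plus strand) encode proteins that stimulate the eIF4A helicase. Eif4h fell from 90.8, 90.2 and 88.3 FPKM to 80.5, 82.5 and 82.2 (log2 fold change −0.13, SE 0.026, limma adjusted p = 0.017). Eif4b fell from 139, 135 and 139 FPKM to 129, 127 and 121 (log2 fold change −0.13, SE 0.032, limma adjusted p = 0.035). Neither gene had a DASA-58 library within the DMSO range. Eif4a1, the main helicase, had 190, 181 and 184 FPKM with DMSO and 168, 178 and 173 with DASA-58, without overlap, and missed the threshold (log2 fold change −0.10, limma adjusted p = 0.087). Its paralogs overlapped between groups: Eif4a2 was at 98.3% of the DMSO mean and Eif4a3, a component of the exon junction complex, at 98.9%, and the sign of both turned positive by at most 0.010 with centring on the median or a trimmed mean of log ratios, and that of Eif4a3 also with quantile normalization.

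The cap-binding proteins were the only group of at least 3 factors with a median above 0, at 0.010, and that median was −0.006 with equal library totals, −0.026 without DMSO replicate 1 and −0.012 without DASA-58 replicate 3. Eif4e, which binds the cap, had 23.6, 24.9 and 26.2 FPKM with DMSO and 24.0, 25.3 and 25.9 with DASA-58. The DASA-58 values lay inside the DMSO range (log2 fold change 0.01, limma adjusted p = 0.92). Eif4e3, an atypical family member, was at 13.5 ± 0.862 and 14.3 ± 0.433 FPKM, and Eif4e2, a cap-binding protein linked to repression, at 13.8 ± 0.407 and 12.7 ± 0.138 (SD, n = 3). Only the latter separated the groups, and neither passed (limma adjusted p = 0.33 and 0.076).

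The inhibitors of Eif4e were not changed at the threshold either. Eif4ebp1, which blocks the cap-binding protein until mTORC1 phosphorylates it, had 57.1, 60.8 and 48.6 FPKM with DMSO and 49.7, 49.8 and 51.8 with DASA-58. DMSO replicate 3 was the lowest of the 6 values, so the groups overlapped (log2 fold change −0.13, limma adjusted p = 0.30). Eif4ebp2 and Eif4enif1, which encodes the 4E transporter, had groups that did not overlap at 94.1% and 92.5% of the DMSO mean (limma adjusted p = 0.13 and 0.16).

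Within eIF3, the largest initiation complex, 12 of 13 tested subunits had a negative log2 fold change, 3 passed and 7 separated the groups downward. Of all genes tested, 59.8% had a negative log2 fold change, 7.28% passed as lower and 21.6% separated the groups downward. Eif3g (chr9:20894349-20898623, minus strand), a subunit with an RNA-binding domain, fell from 52.1, 52.6 and 50.3 FPKM to 43.5, 47.8 and 43.2 (log2 fold change −0.20, SE 0.044, limma adjusted p = 0.024). Eif3l (chr15:79075179-79094405, plus strand) fell from 127, 135 and 136 FPKM to 120, 119 and 122 (log2 fold change −0.14, SE 0.033, limma adjusted p = 0.034). Eif3b (chr5:140419328-140443360, plus strand), a core scaffold subunit, fell from 107, 102 and 98.6 FPKM to 88.1, 95.3 and 92.5 (log2 fold change −0.15, SE 0.040, limma adjusted p = 0.046). These subunits ended at 86.7%, 90.6% and 89.7% of their DMSO means.

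The other eIF3 subunits ranged from −0.14 (Eif3j1) to 0.13 (Eif3f). Eif3h, the most abundant subunit, had 241, 253 and 258 FPKM with DMSO and 248, 243 and 245 with DASA-58. Its groups overlapped, and its log2 fold change of −0.03 turned to 0.013 with quantile normalization. Eif3f was the one subunit with all DASA-58 libraries above DMSO: 90.4, 90.1 and 74.2 FPKM against 96.0, 90.8 and 91.4. DMSO replicate 3 stood far below the other 2 DMSO libraries, the difference did not pass (log2 fold change 0.13, limma adjusted p = 0.29), and it was 0.039 without that library. The complex summed to 1114, 1146 and 1127 FPKM with DMSO and 1072, 1090 and 1074 with DASA-58, which is 95.5% of the DMSO mean and without overlap.

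Of the 4 tested genes of the tRNA-carrying eIF2, none passed and all had a negative log2 fold change, with a median of −0.096. Of all genes tested, 59.8% had a negative log2 fold change. Eif2s1, the alpha subunit that stress kinases phosphorylate, gave 29.2, 29.9 and 30.5 FPKM with DMSO and 27.5, 28.3 and 26.9 with DASA-58. These groups did not overlap, but Eif2s1 did not pass (log2 fold change −0.11, limma adjusted p = 0.075). Eif2s3x, the X-linked gamma subunit, was at 88.1% of the DMSO mean without overlap (limma adjusted p = 0.076), while its Y-linked copy Eif2s3y at 97.6% and the beta subunit Eif2s2 at 94.5% overlapped.

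All 5 eIF2B genes had a negative log2 fold change, with a median of −0.119, where 59.8% of all genes were negative. The alpha subunit gene Eif2b1 (chr5:124570213-124579131, minus strand) fell from 18.5, 20.1 and 19.4 FPKM to 16.8, 17.6 and 17.4 (log2 fold change −0.15, SE 0.041, limma adjusted p = 0.0496), the weakest of the 13 calls. Eif2b2, the most abundant subunit, had 36.6, 39.6 and 40.9 FPKM with DMSO and 36.1, 36.2 and 34.7 with DASA-58. Its groups were separated by a small gap and it did not pass (log2 fold change −0.12, limma adjusted p = 0.11). Eif2b5, the catalytic subunit, was at 92.7% of the DMSO mean without overlap, and Eif2b4 and Eif2b3 overlapped.

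The kinases that phosphorylate eIF2 alpha did not pass in either direction. Eif2ak1, the heme-regulated kinase, had 15.4, 14.7 and 15.8 FPKM with DMSO and 14, 14 and 14.7 with DASA-58, a separation by a margin too small for the rounded values to show (limma adjusted p = 0.15). Eif2ak2, the kinase activated by double-stranded RNA, was at 88.4% without overlap, and Eif2ak3, the kinase of the endoplasmic reticulum, at 92.8% with overlap. Eif2ak4, the kinase that senses uncharged tRNA, went the other way with 3.44 ± 0.105 and 3.62 ± 0.0482 FPKM (SD, n = 3), without overlap and at a limma adjusted p of 0.49.

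Of the scanning factors and the factors of subunit joining, none passed. Eif1, which guards start codon selection, had 98.9, 104 and 101 FPKM with DMSO and 93.5, 94.2 and 96.6 with DASA-58. The groups did not overlap (log2 fold change −0.09, limma adjusted p = 0.084), which held also for Eif1b (−0.16) and Eif1a (−0.11) but not for Eif1ax (−0.06). Eif5, the GTPase-activating protein of eIF2, gave 34.0, 32.1 and 34.9 FPKM against 31.8, 32.1 and 31.1, with overlap at the margin (log2 fold change −0.08, limma adjusted p = 0.19). Eif5b, which joins the subunits, was at 94.6% of the DMSO mean without overlap. Eif2a, an alternative initiation factor, had 14.5, 14.9 and 15.3 FPKM against 14, 13.5 and 14.2, likewise without overlap (limma adjusted p = 0.15), and Eif2d at 98.9% overlapped.

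Of the remaining genes, Eef1e1 had the lowest DASA-58 level relative to DMSO among the 13. It encodes AIMP3, a scaffold of the multi-tRNA synthetase complex that bears an elongation factor symbol (chr13:38644207-38659058, minus strand). Its level fell from 8.94, 9.22 and 9.29 FPKM to 7.17, 8.35 and 7.69, 84.6% of the DMSO mean (log2 fold change −0.22, SE 0.055, limma adjusted p = 0.041). Eif1ad gave 29.1, 32.0 and 29.6 FPKM against 25.7, 28.5 and 29.1, without overlap and not past the threshold (limma adjusted p = 0.20). The methyltransferase genes were mixed. Eef1akmt1, which modifies a lysine of eEF1A, had 32.4, 33.9 and 30.4 FPKM with DMSO and 30.6, 34.2 and 33.8 with DASA-58, with overlap, whereas Eef1akmt2 was at 83.1% (limma adjusted p = 0.062) and Eef2kmt at 88.9% (limma adjusted p = 0.20), both without overlap.

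The 4 genes below the expression limit were Eef1a2, Eif4ebp3, Eif3j2 and Eef1akmt3. Eef1a2, the elongation factor of neurons and muscle, had 0.314, 0.305 and 0.237 FPKM with DMSO and 0.688, 0.712 and 0.506 with DASA-58, values that rest on 9 to 12 and 20 to 27 fragments. The groups did not overlap, the two-sided exact permutation test over libraries gave p = 0.10, the smallest that 3 against 3 allows, and in a limma fit without the limit it missed the threshold (log2 fold change 0.35, SE 0.066, adjusted p = 0.061). At this level Eef1a2 remained far below Eef1a1 in every library. The other 3 overlapped between groups, at 1.09 and 0.885 FPKM for Eif4ebp3, 0.242 and 0.242 for Eif3j2, and 0.0922 and 0.0457 for Eef1akmt3.

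The promoters of the factors were searched for 5 short motifs because several factors moved together. RefSeq promoter windows (GRCm38.p6, 250 bases before to 50 bases after a start site) were given for 51 of the 66 genes, in 66 windows. The letters CACGTG, the E-box read by MYC, USF and TFE proteins and the same on both strands, stood in 21.2% of these windows and in 7.15% of all 32851 windows. The letters CCGGAAGT, a site of the ETS type, stood on either strand in 16.7% and 3.89%. Windows of 1 gene can overlap and were not independent. The set of all windows was not limited to genes expressed here or matched in base composition. Eif5a held a further E-box, at chr11:69920787-69920824, that is not shown. For each factor that had an E-box and was lower with DASA-58, 1 E-box is shown here. It is given with 16 bases on each side, in capitals and on the strand of the gene.
Eif5a, chr11:69921439-69921476, minus strand: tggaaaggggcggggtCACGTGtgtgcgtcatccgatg
Eef2, chr10:81176572-81176609, plus strand: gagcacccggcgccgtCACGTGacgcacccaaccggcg
Eif4h, chr5:134639484-134639521, minus strand: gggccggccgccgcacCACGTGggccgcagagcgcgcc
Eif4g1, chr16:20672657-20672694, plus strand: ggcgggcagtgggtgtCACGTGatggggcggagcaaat

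Of the 12 factors with an E-box, the other 8 did not pass the test. A further E-box of Eif4e, at chr3:138527024-138527061, is not shown. Eif3f and Eif4e are shown from these 8, chosen after their values were seen because their log2 fold change in the reported fit was above 0.
Eif3f, chr7:108934331-108934368, plus strand: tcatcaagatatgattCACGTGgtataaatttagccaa
Eif4e, chr3:138527188-138527225, plus strand: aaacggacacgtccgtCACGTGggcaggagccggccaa

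Eif5a and Eif3l, both lower with DASA-58, also held the ETS letters, which lie on the opposite strand in Eif3l.
Eif5a, chr11:69920662-69920701, minus strand: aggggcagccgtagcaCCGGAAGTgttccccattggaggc
Eif3l, chr15:79075171-79075210, plus strand: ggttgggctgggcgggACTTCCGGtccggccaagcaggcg

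Factors with and without these letters had medians close to each other. The 12 tested factors with an E-box changed by a median of −0.09 on the log2 scale and 4 of them passed, and for the 38 with windows but no E-box these values were −0.10 and 6. The 9 with the ETS letters had −0.12 with 2 passing, against −0.09 and 8 in the other 41. Of all genes tested, 7.28% were lower at this threshold. The share among all genes with the same letters is not given here. The antioxidant response element TGACNNNGC, searched on both strands, stood in 18.2% of the factor windows and 12.4% of all windows, and in Eif5a, Eef2 and Eif5a2 it overlapped an E-box. The C/EBP-ATF element TGATGNAA, on either strand, stood in 3.03% and 3.97%, and a run of a C and at least 4 further pyrimidines, sought on the strand of the gene from 10 bases before to 15 bases after the start site, in 33.3% and 30.7%. A match in these windows is a description of the letters only.

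Ratios inside a library do not depend on how libraries are scaled to each other, and 5 were computed. The mean of the 3 eEF1B subunits relative to Eef1a1 was 0.0539, 0.0548 and 0.0516 with DMSO and 0.0472, 0.0490 and 0.0491 with DASA-58. As a mean of FPKM it is weighted to Eef1g, at 321 FPKM with DMSO against 179 for Eef1b2 and 30.5 for Eef1d. All DASA-58 ratios were lower than all DMSO ratios, a log2 difference of −0.14 with a pooled SD of 0.039 and the smallest two-sided exact permutation p possible for 3 against 3, 0.10 (0.50 after adjustment over the 5 ratios). The ratio of Eif4ebp1 plus Eif4ebp2 to Eif4e was 3.65, 3.6 and 2.93 with DMSO and 3.22, 3.0 and 3.04 with DASA-58, which overlapped (log2 difference −0.13, pooled SD 0.13, exact permutation p = 0.40). Eif4a2 to Eif4a1 differed by 0.07, eIF3 to eIF2 by 0.04 and eIF2B to eIF2 by −0.01 on the log2 scale, with overlap in each (exact permutation p = 0.20, 0.30 and 0.70). The eIF3 mean was divided by the mean of all 4 eIF2 genes, Eif2s3y included. The eIF2B mean was divided by the mean of Eif2s1, Eif2s2 and Eif2s3x.

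**Figure D3:**
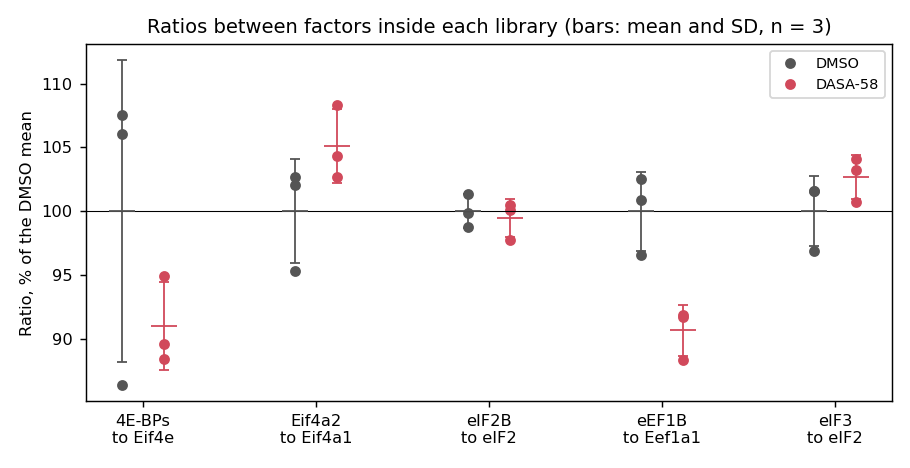
Ratios between factors inside each library as a percentage of the DMSO mean (vertical axis), with grey points for DMSO, red points for DASA-58 and bars for the mean and SD (n = 3). Only for eEF1B to Eef1a1 do all red points lie below all grey points; in the other 4 ratios the groups overlap.

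Some factors share sequence with other genes, so the counting could have split their fragments. Stretches of 100 bases shared with other genes made up 32.4% of Eef1g, nearly all of it with the pseudogene Gm4366. Gm4366 was at 18.0 ± 1.25 FPKM with DMSO and 17.3 ± 1.36 with DASA-58 (SD, n = 3), and Eef1g and Gm4366 together gave 333–344 and 290–305 FPKM, which is 88.4% of the DMSO mean, without overlap. Eif4a1 shared 22.6%, mostly with Eif4a-ps4, which was itself counted at 146 ± 1.25 and 140 ± 3.77 FPKM (SD, n = 3), so the level of Eif4a1 is uncertain, while the sum of both was 328–335 and 308–321 FPKM. For Eif2s2, the sum with Gm9892 was 38.6–42.9 and 40.3–43.8 FPKM, or 101.6% of the DMSO mean, where Eif2s2 alone was at 94.5%. Eif2s3x shared 33.7% with Gm2223 and Eif3j1 33.4% with Eif3j2, and these sums were at 89.6% and 89.8% of the DMSO mean. Eef1a1 shared 16.3% with 10 other genes, and its sum with Gm13456, the largest sharer, was at 99.2%. Eif3j2 shared 84.0% of its stretches with Eif3j1 and Eif4ebp3 shared 62.8% with AC115631.1, whose exons overlap its own. Eif3d had 43.3% and Eef2kmt 23% of their exons under exons of the opposite strand.

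The factors were set beside the other parts of the translation machinery. Of 80 tested genes of cytosolic ribosomal proteins, 79 had a negative log2 fold change, 26 were lower and 0 higher, and the median was −0.117. Of 20 cytosolic aminoacyl-tRNA synthetases, 18 were negative, 4 were lower and 0 higher, and the median was −0.085. Of all genes tested, 59.8% were negative, 7.28% lower and 4.24% higher. The factors lay between these groups with their median of −0.095, and the differences among the groups were not tested.

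**Figure D4:**
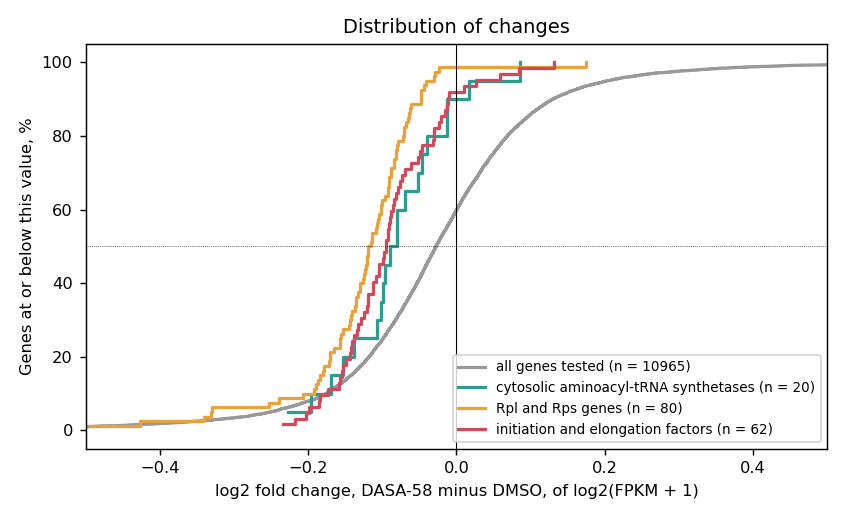
Cumulative distribution of the log2 fold change (DASA-58 minus DMSO, horizontal axis) for the 62 factors, 80 ribosomal protein genes, 20 aminoacyl-tRNA synthetases and all 10965 genes tested, as the percentage of genes at or below each value (vertical axis). At 50% the factors are at −0.095 and all genes at −0.028, and the curves of the 3 translation groups run close together.

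Genes that regulate or assist the factors had few calls, counted together with factors of termination, ribosome rescue and mitochondrial translation. Of 65 tested genes in 7 lists, 5 were lower and 1 was higher, where 7.28% and 4.24% of all genes were, so the calls were near the background. A negative log2 fold change was found in 56 of the 65, where 59.8% of all genes had one, and the median was −0.081. Larp1, which holds mRNAs of the translation machinery under mTORC1 control, was the 1 of 16 genes of mTORC1 and MNK signalling that passed. It fell from 27.0, 25.8 and 27.1 FPKM to 22.8, 22.9 and 23.5 (log2 fold change −0.20, limma adjusted p = 0.0097). Among 7 genes of poly(A)-binding proteins and their partners, Pabpc1 fell from 318, 307 and 311 FPKM to 285, 280 and 279 (log2 fold change −0.15, limma adjusted p = 0.0095).

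Pabpc4, another poly(A)-binding protein, fell from 34.4, 35.2 and 33.4 FPKM to 29.2, 28.1 and 30.5, 85.2% of the DMSO mean (limma adjusted p = 0.011). Their partner Paip1, which stimulates translation by binding both the poly(A)-binding protein and eIF4A, rose from 16.8, 15.3 and 16.9 FPKM to 19.0, 18.3 and 19.1 (log2 fold change 0.19, limma adjusted p = 0.033). Of 9 enzymes that place hypusine on eIF5A or diphthamide on eEF2, Dph2 fell from 6.74, 6.67 and 6.94 FPKM to 5.63, 5.64 and 5.03, or 80.1% (limma adjusted p = 0.015), while Dhps, the enzyme that starts hypusine synthesis, was at 84.9% and did not pass (limma adjusted p = 0.10). Of 11 mitochondrial translation factors, the elongation factor Tufm fell from 52.8, 54.6 and 50.4 FPKM to 45.3, 45.8 and 45.9, or 86.9% (limma adjusted p = 0.011). No gene passed among 12 other initiation helpers, 5 genes of the eIF2 alpha phosphatase and 5 of termination and ribosome rescue, where 5, 1 and 1 were lower and 0, 1 and 0 higher at an unadjusted p under 0.05 in limma, a level that 18.0% and 9.83% of all genes reached.

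The number of factors past the threshold depended on the settings. The median of all factors stayed negative in every setting, while the sign of some single factors turned. The number past the threshold was 13 of 62 in the reported fit, where 7.28% of all genes were lower. It was 2 of 66 without the limit on low values, where 1.58% were, and 2 of 62 without a variance trend, where 4.7% were. It was 4 of 62 with median centring and 5 of 62 with a trimmed mean of log ratios, where 4.73% and 4.77% were. Quantile normalization gave 10 of 62 and equal library totals 17 of 62, where 5.36% and 8.74% of all genes were lower. It was 3 of 62 without DMSO replicate 1, 5 of 63 without DMSO replicate 2 and 10 of 62 without DMSO replicate 3. The shares of all genes lower were 3.52%, 5.05% and 5.51%. Without DASA-58 replicate 1 it was 3 of 62, without replicate 2 it was 4 of 63 and without replicate 3 it was 4 of 62. Of all genes, 3.81%, 4.24% and 3.61% were lower. Among factors of at least 5 FPKM, 16 of 56 passed, where 11.8% of all genes at that level did. In none of these settings did a factor pass as higher. Eef1g passed in all 17 alternatives, Eif5a in 16, Eif4h in 12, and Eef2 and Eif3g in 11 each. Eif3l and Eif6 passed in 8, Eif3b and Eif4g1 in 7, Eif4b and Eef1e1 in 6, Eef1d in 5 and Eif2b1 in 4, and the sign of all 13 was negative throughout.

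**Figure D5:**
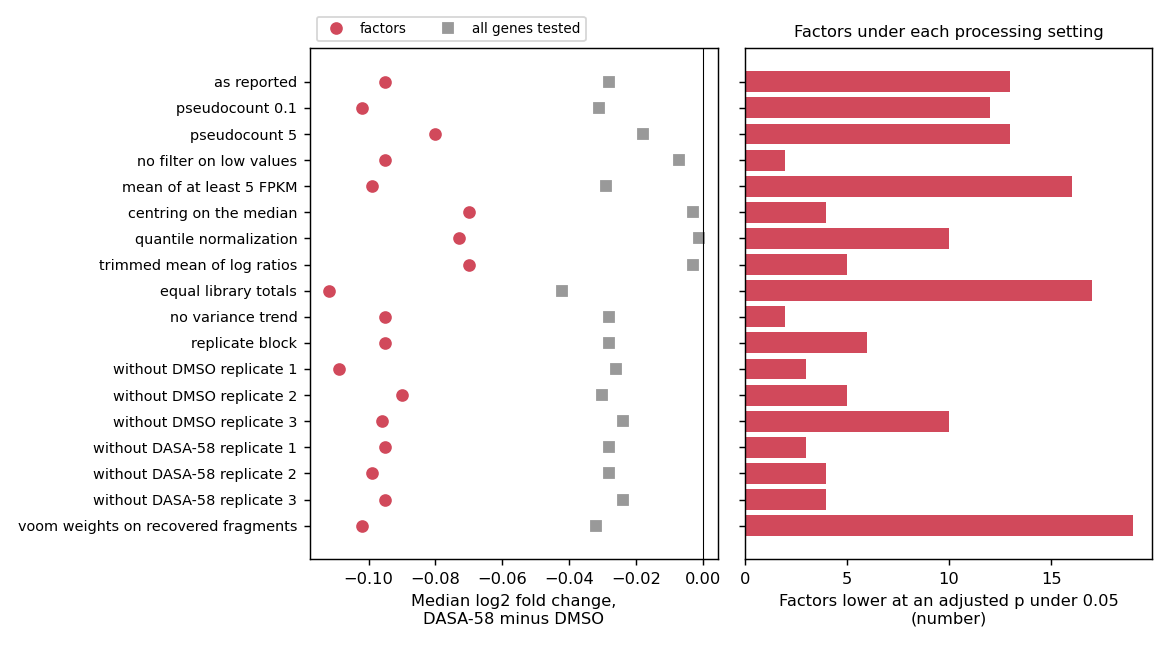
Left, the median log2 fold change (DASA-58 minus DMSO) of the factors (red) and of all genes tested (grey) under each processing setting. Right, the number of factors lower at an adjusted p under 0.05, which runs from 2 to 19. The share of all genes lower runs from 1.58% to 11.85%. The median of the factors stays between −0.112 and −0.070 and below that of all genes in every setting.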

How the data were processed

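RNA from BMMs was sequenced in 6 libraries, 3 with DMSO and 3 with DASA-58, grouped by the treatment in the sample labels. The authors deposited FPKM values in 1 table of 23504 genes. The submitters' processing notes name HISAT2 2.1.0, HTSeq 0.6.0 and the build mm8, without their roles, while 91.0% of genes gave whole fragments (within 0.02) in all libraries when multiplied by exon lengths from GENCODE mouse 21 (GRCm38), whose coordinates are given. Recovered depths were 18191560 to 18968556 fragments. The limit of 3 fragments for a count of 0 corresponds to 0.158–0.165 FPKM in a gene with 1 kilobase of exon, counting error only. It is lower in longer genes. A symbol was found for 23455 identifiers, and 49 had none.

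Values were analysed as log2(FPKM + 1), which understates changes of low genes, keeping genes whose mean reached 1 FPKM. DASA-58 was tested against DMSO by limma 3.58.1 under R 4.3.3 (empirical Bayes with a variance trend, Benjamini-Hochberg over 10965 genes), using all 6 libraries and no covariate. Ratios were compared with exact permutation tests (SciPy 1.17.1). No test was run over lists. The members and lists were chosen with earlier results of these data known. Values in every library are given for each factor past the threshold and for the most abundant one of each factor group, and for genes of the other lists past the threshold. The cap-binding group, Eif3f, Eef1a2 and the genes given without a call were named to account for all members. The closing section gives the effect of pseudocount, filter, scaling, variance trend, replicate block, left-out libraries and voom weights on recovered fragments.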

Additional observations from a re-analysis of the deposited data

How the results depend on the processing

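The factors remained lower on balance under every alternative run. With a pseudocount of 5 their median log2 fold change was −0.080, that of the eIF2 alpha kinases −0.067 and that of the 4E-BPs and 4E-T −0.078. Without the filter on low values 372 genes were lower and 257 higher, with 2 factors lower. With centring on the median 519 genes and 4 factors were lower, and the medians were −0.070 for all factors, −0.057 for eIF3, −0.022 for eIF4G, −0.070 for eIF4A, eIF4B and eIF4H, −0.079 for the 4E-BPs and 4E-T and −0.114 for eEF1B. With a trimmed mean of log ratios 523 genes and 5 factors were lower, and the same medians were −0.070, −0.057, −0.022, −0.071, −0.079 and −0.114. In both, the sign turned for Eef1a1 (0.013), Eif2d (0.012), Eif4a2 (0.001), Eif4a3 (0.010), Eif4g3 (0.004) and Eif5a2 (0.015). Quantile normalization gave medians of −0.073 for all factors, −0.067 for the eIF2 alpha kinases, −0.056 for eIF3, −0.112 for eIF4A, eIF4B and eIF4H and −0.077 for the 4E-BPs and 4E-T, a log2 difference of −0.10 for eEF1B to Eef1a1, and turned Eif2d (0.015), Eif3h (0.013), Eif4a3 (0.001), Eif4g3 (0.005) and Eif5a2 (0.016). With equal library totals the medians were −0.112 for all factors, −0.099 for eIF3 and −0.113 for eIF4A, eIF4B and eIF4H, and Eif4e turned to −0.006. Without a variance trend 515 genes and 2 factors were lower. Voom weights on recovered fragments, chosen after seeing the data, called 1299 genes lower and 714 higher, with 19 factors lower and 0 higher. In that fit 11.85% of all genes were lower. It took in all genes with an annotated length, also those that did not give whole fragments. Of the 66 factors 55 gave whole fragments, and Eef1d, Eif3l, Eif4b and Eif4g1 did not, so their counts there were only rounded estimates.

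The replicate numbers did not pair the libraries. Correlations of deviations between libraries of the same number were −0.015, 0.016 and −0.016, and no library correlated best with the library of its own number. With a replicate block 579 genes were lower and 378 higher, with 6 factors lower, where 5.28% of all genes were lower.

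Leaving out 1 library gave 385 to 604 genes lower, 273 to 373 higher, 3 to 10 factors lower, and medians of −0.109 to −0.090 for all factors, −0.073 to −0.018 for eIF4G, −0.115 to −0.076 for eIF4A, eIF4B and eIF4H and −0.163 to −0.113 for eEF1B. The sign turned in at least 1 of these fits for 8 factors, which ranged from −0.024 to 0.002 (Eef1a1), −0.015 to 0.075 (Eef1akmt1), −0.185 to 0.011 (Eef2k), −0.049 to 0.023 (Eif2d), −0.037 to 0.004 (Eif4a3), −0.026 to 0.047 (Eif4e), −0.061 to 0.027 (Eif4g3) and −0.032 to 0.013 (Eif5a2). The cause of these changes was not tested. None of the factors whose sign turned was past the threshold. Depth limits the factors below 1 FPKM, such as Eef1a2, whose values rest on 9 to 27 fragments.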
